A study of Mus musculus with 6 samples.

Results

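The genes described here are 37 members of the hypoxia response and of glycolysis, chosen by symbol as factors and targets of the hypoxia-inducible factors (HIF), glycolytic enzymes and their transporters. All 37 were among the 17572 protein-coding genes of the count table. RNA sequencing had been run on skin scars of wild-type (WT) C57BL/6 mice, collected 2 weeks after surgery. In the hypertrophic scars (HS, 3 libraries) the wound lay on the upper back and its edges were stitched to the rib cage under tension. In the normal scars (NS, 3 libraries) the wound lay on the lower back and was closed in place without tension. Tension and position on the back differed together between HS and NS and cannot be told apart. Nothing in the labels states that each library is a mouse of its own, so a p-value here speaks of the spread among libraries, which may be technical. Each library is bulk skin, in which fewer cells of a type and less RNA per cell cannot be told apart.

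Cells sense oxygen through HIF, a dimer of an oxygen-regulated subunit (HIF-1alpha from Hif1a, HIF-2alpha from Epas1) and the stable partner ARNT. With oxygen present, prolyl hydroxylases such as those from Egln1 and Egln3 mark the alpha subunits, and the VHL ubiquitin ligase removes them, so that much of the regulation acts on protein and is not visible in RNA counts. When oxygen falls, HIF binds DNA with a short core motif and raises genes of glucose uptake, glycolysis, lactate export and mitochondrial turnover. Glycolysis splits glucose into pyruvate, which lactate dehydrogenase turns into lactate, and healing skin is known for its high glucose use.

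Summed counts per library ran from 20375395 to 27859889. Normalised counts (CPM) were scaled by these totals, by which 1 count was worth 0.0359 to 0.0491 CPM, and then by TMM factors (a correction for RNA composition), and differences were tested over 14513 genes with the quasi-likelihood test of edgeR, adjusted by Benjamini-Hochberg, with an adjusted p below 0.05 as a call. Of these genes, 919 (6.33%) were called higher in HS and 365 (2.51%) lower, so that 71.6% of all calls were higher. With no factor beyond the library total this share was 61.4%. HS replicate 2 lay nearest to NS, with scores on the first principal component of log2 CPM (59.5% of the variance) of -51.0, -5.53 and -34.4 in HS replicates 1, 2 and 3 and between 28.9 and 31.6 in the NS libraries. It had the lowest CPM of the HS libraries in 28 of the 37 members (39.1% of all tested genes), and HS replicate 1 the highest in 26 (39.8% of all tested genes).

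Most of the 37 genes were not called, as was so for all tested genes. All 37 passed the filter on low counts, 4 rose in HS (Hif1a, Epas1, Ndrg1 and Eno2), 1 fell (Ldhb), and 32 were not called. These are 5 calls among 37 genes, while 8.85% of all tested genes were called. The share called higher was 10.8%, against 6.33% of all tested genes, and the share called lower 2.70%, against 2.51%. Most differences were small and positive. The median log2 fold change (HS over NS) was 0.21 over the 37 members and -0.01 over all tested genes. Of the members 28 were above 0 and 9 below, against 7068 and 7445 of the 14513 tested genes. A size of 1 on the log2 scale was reached by 2 members (8.84% of all tested genes did). The HS libraries lay wholly above the NS libraries in 14 of the 37 members, a larger share than the 17.2% of all tested genes. They lay wholly below in 2 (15.2% of all tested genes). An unadjusted p below 0.05 was found for 14 of the 37 members, a larger share than the 26.3% of all tested genes. The members were chosen with earlier results of these data known, so these shares are no test. The median difference of the members from the NS mean, in log2(CPM + 0.5), was 0.33, 0.10 and 0.16 in HS replicates 1, 2 and 3.

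**Figure D1:**
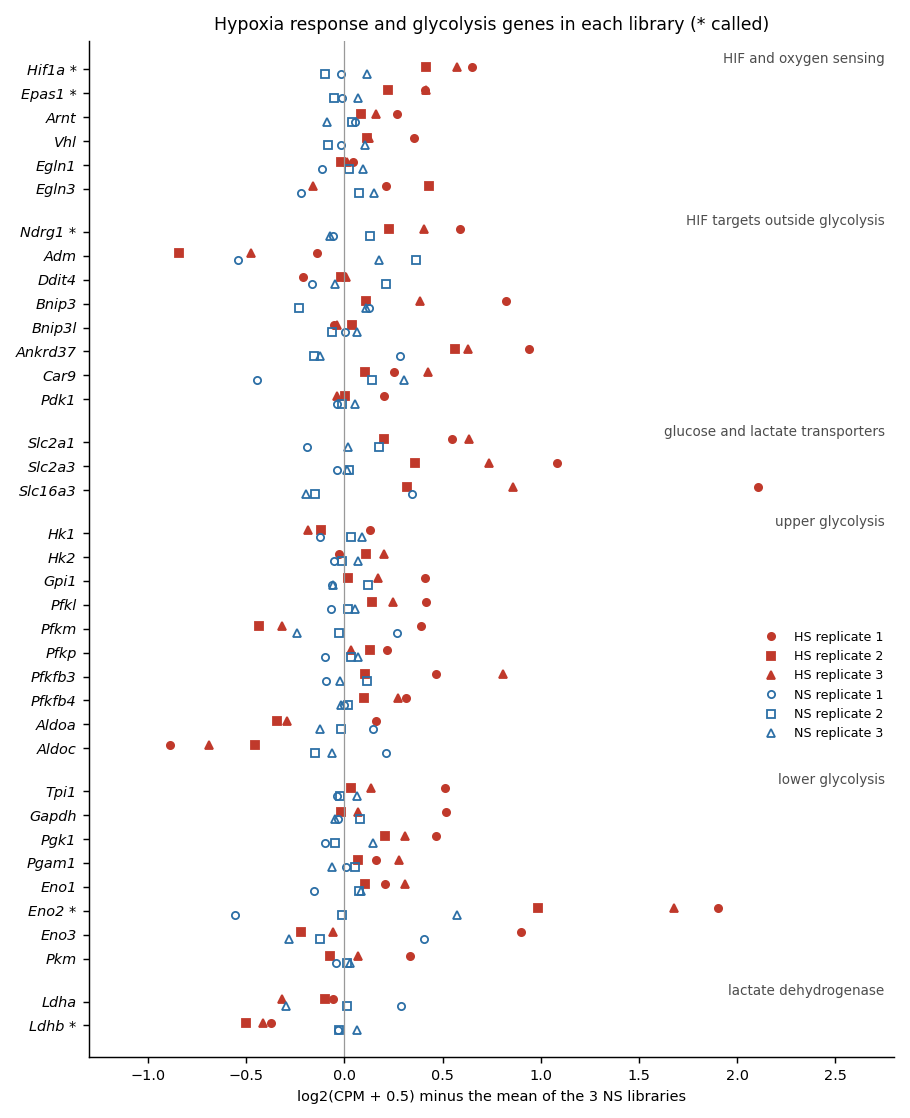
Each point is 1 library, placed by its log2(CPM + 0.5) minus the mean of the 3 NS libraries for that gene (filled red, HS; open blue, NS; circle, square and triangle, replicates 1, 2 and 3), with the members grouped by role and called genes starred. Most HS points lie between 0 and 1, HS replicate 1 is often the farthest right, and Aldoc and Ldhb are the 2 genes with all HS points left of all NS points.

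Both oxygen-regulated subunits of HIF rose. Hif1a (chromosome 12, 73901375 to 73947530) stood at 417, 354 and 396 CPM in HS replicates 1 to 3 and at 263, 248 and 288 CPM in NS replicates 1 to 3. Every HS library was above every NS library. With 3 libraries in each group, mean and SD were 389 ± 32.1 CPM in HS, against 266 ± 20.1 CPM in NS, a log2 fold change of 0.55 ± 0.0965 (SE, edgeR adjusted p = 0.0159) or 1.46-fold. Exons of Hif1a overlap those of Gm15283, annotated as antisense, and of Gm49321, so counts of those genes may be included. Epas1 (chromosome 17, 86753700 to 86833410) stood at 173, 152 and 174 CPM in HS and at 129, 125 and 137 CPM in NS, again without overlap. Its log2 fold change was 0.35 ± 0.0848 (SE, edgeR adjusted p = 0.0375), or 1.28-fold. Epas1 is a gene of blood vessel endothelium among other cells. The summed CPM of 10 endothelial markers, 7 of which were called higher and none lower, was 363 to 589 in HS and 214 to 233 in NS, with none of the 10 at 0, and its part in the level of Epas1 was not tested.

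The partner and the negative regulators of HIF were not called. Arnt, the partner subunit, averaged 129 ± 8.36 CPM in HS and 115 ± 6.24 CPM in NS (log2 fold change 0.17, 95% interval -0.02 to 0.36). Vhl, the substrate receptor that removes HIF, averaged 25.6 ± 2.49 CPM in HS and 22.2 ± 1.54 CPM in NS. In both genes the HS libraries lay above the NS libraries without passing the test (edgeR adjusted p = 0.235 for Arnt and adjusted p = 0.361 for Vhl). Egln1, the main oxygen sensor among the prolyl hydroxylases, averaged 111 ± 2.42 CPM in HS and 111 ± 8.04 CPM in NS, with an interval of the log2 fold change of -0.18 to 0.20. Egln3, a hydroxylase that is itself a HIF target, was spread over 81.5 to 123 CPM in HS and 78.1 to 101 CPM in NS, so that the groups overlapped.

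The HIF core motif was looked for as ACGTG or GCGTG, on both strands, in the 250 bases before each RefSeq start site (GRCm38.p6, the build of mm10). RefSeq windows matched 33 of the 37 members by symbol, and not Epas1, Ndrg1, Slc2a3 or Bnip3l. At least 1 window held a match in 29 of the 33 genes (87.9%), against 57.9% of the 10703 tested genes with a window. The median GC content was 60.4% in windows of members and 59.2% in windows of tested genes. By window, 80.4% of the 46 windows of members held a match, against 38.6% of all 32851 windows. Many members were listed because they are HIF targets. A high share can follow from that choice and is no result of the RNA counts. Several members have more than 1 window, and a match is only a run of letters. The Hif1a window, which lies before the RefSeq start and inside the longer gene that the annotation gives, is shown because the gene was called; capitals mark the matches, of which the first is a CACGTG that reads as ACGTG on both strands, counted as 2 overlapping matches.
Hif1a, chr12:73907617-73907866, plus strand: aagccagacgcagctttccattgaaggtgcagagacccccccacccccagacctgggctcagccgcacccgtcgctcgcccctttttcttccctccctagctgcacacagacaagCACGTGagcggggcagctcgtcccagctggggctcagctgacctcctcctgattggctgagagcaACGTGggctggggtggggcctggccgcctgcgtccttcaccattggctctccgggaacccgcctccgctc

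Of 8 HIF targets outside glycolysis, 1 rose (12.5%) and none fell, while 6.33% of all tested genes were called higher and 2.51% lower. Ndrg1, a stress-induced gene of differentiating epithelium and myelinating cells (chromosome 15, 66929318 to 66969640), stood at 158, 123 and 140 CPM in HS and at 101, 116 and 100 CPM in NS. The lowest HS library was just above the highest NS library. The log2 fold change of Ndrg1 was 0.41 ± 0.108 (SE, edgeR adjusted p = 0.0476), or 1.33-fold, close to the threshold. Its exons overlap 2 annotated non-coding genes on the other strand, and the sources used here do not state whether counting kept the strand.

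The mitophagy receptors Bnip3 and Bnip3l were not called. Bnip3 had 117, 71.3 and 86.3 CPM in HS and 72.1, 56.2 and 71.2 CPM in NS, with HS replicate 2 inside the NS range (log2 fold change 0.46, edgeR adjusted p = 0.158). Bnip3l had 297, 315 and 300 CPM in HS and 308, 294 and 321 CPM in NS. Its interval of -0.20 to 0.16 on the log2 scale was among the narrowest of the members. Ankrd37, a small ankyrin-repeat HIF target, had 7.33, 5.53 and 5.82 CPM in HS and 4.46, 3.17 and 3.24 CPM in NS, without overlap (log2 fold change 0.78 ± 0.259, SE, edgeR adjusted p = 0.0918). This was the largest difference among the targets outside glycolysis.

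The remaining targets were also not called. Adm, which encodes the vessel-dilating peptide adrenomedullin, averaged 6.62 ± 1.72 CPM in HS and 9.62 ± 3.06 CPM in NS, a log2 fold change of -0.54 (95% interval -1.21 to 0.13). Ddit4, an inhibitor of the growth kinase mTORC1, averaged 40.1 ± 3.31 CPM in HS and 42.3 ± 5.88 CPM in NS. Pdk1, a kinase that inhibits pyruvate dehydrogenase, averaged 96.9 ± 8.93 CPM in HS and 93.1 ± 2.98 CPM in NS. The groups overlapped in all 3 genes. Car9, a carbonic anhydrase of the cell surface often used as a marker of hypoxia, was counted 59, 44 and 70 times in HS libraries and 27, 42 and 58 times in NS libraries, too few to narrow its interval beyond -0.60 to 1.17 on the log2 scale.

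The 3 transporters had positive differences, and none was called by edgeR (each had an unadjusted p below 0.05, as did 26.3% of all tested genes). Slc2a1, which encodes the basal glucose transporter GLUT1, had 72.8, 57.1 and 77.3 CPM in HS and 43.4, 56.0 and 50.1 CPM in NS (log2 fold change 0.47 ± 0.139, SE, edgeR adjusted p = 0.0663). HS replicate 2 and NS replicate 2 nearly met. Slc2a3, which encodes the high-affinity transporter GLUT3 of neurons and white blood cells, had 8.84, 5.17 and 6.85 CPM in HS and 3.8, 3.99 and 3.96 CPM in NS (0.83 ± 0.260, adjusted p = 0.0798). Slc16a3, which encodes the lactate exporter MCT4, had 30.1, 8.38 and 12.4 CPM in HS and 8.53, 5.91 and 5.72 CPM in NS. HS replicate 2 was below NS replicate 1, and HS replicate 1 stood far above the rest. The log2 fold change of Slc16a3 was 1.34 ± 0.472 (SE, adjusted p = 0.123), and 0.63 without HS replicate 1 (adjusted p = 0.193). With DESeq2 all 3 transporters were called higher, at adjusted p = 0.0302 for Slc2a1, adjusted p = 0.0283 for Slc2a3 and adjusted p = 0.0127 for Slc16a3, in a test that called 11.1% of all genes higher and 5.66% lower.

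Markers of white blood cells differed along with these transporters. The summed CPM of 10 macrophage and monocyte markers, 2 of 9 tested called higher and none lower, was 2759, 973 and 1745 in HS replicates 1 to 3 and 735 to 896 in NS. The sum of 10 neutrophil markers, 6 of 8 tested called higher and none lower, was 265, 119 and 408 in HS and 17.6 to 26.0 in NS. No marker of either list was at 0 in all libraries. The neutrophil genes Retnlg and Ly6g were at 0 in each NS library and low in HS. In HS libraries Retnlg had 0.713 to 1.81 CPM and Ly6g 0 to 0.489 CPM. The largest neutrophil markers in HS were S100a9 and S100a8, with means of 105 and 83.0 CPM. HS replicate 2 was the lowest HS library in both sums and in all 3 transporters. It was also the lowest in the sums of fibroblast and endothelial markers, among others, and in 28 of the 37 members. In the sums of T cell and mast cell markers it was not the lowest. The part of these cells in the transporter values was not tested.

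**Figure D2:**
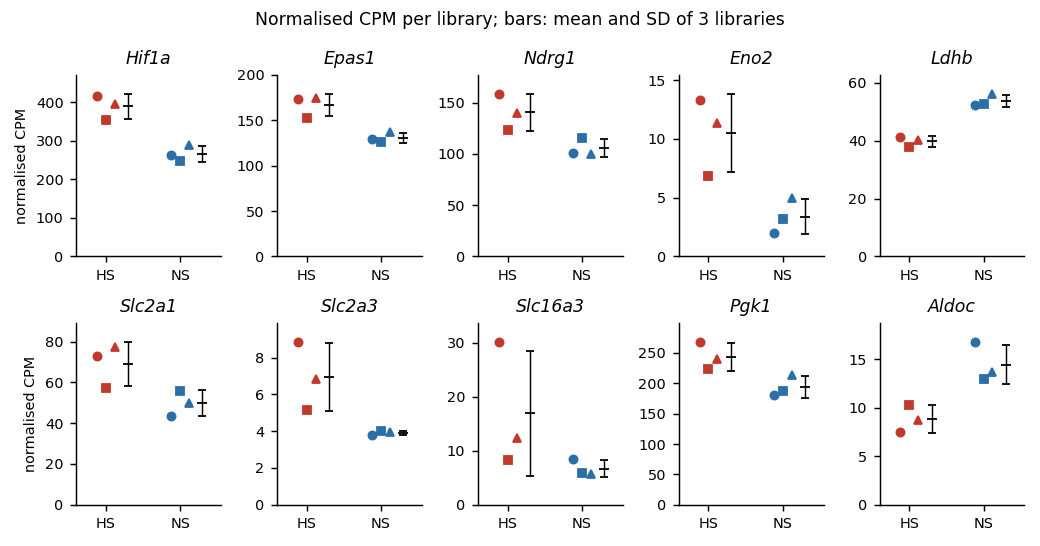
Points are the normalised CPM of single libraries (circle, square and triangle for replicates 1, 2 and 3, HS left and NS right), with the mean and SD of 3 libraries beside them and every axis starting at 0. HS lies above NS without overlap in Hif1a, Epas1, Ndrg1, Eno2, Slc2a1, Slc2a3 and Pgk1, below NS in Ldhb and Aldoc, and overlaps NS in Slc16a3.

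None of the 10 genes of upper glycolysis was called by edgeR, while 8.85% of all tested genes were called. Of the 10, 3 had an unadjusted p below 0.05 (26.3% of all tested genes did). DESeq2 called 1 (Aldoc), and the median log2 fold change of the 10 was 0.11. The hexokinases Hk1 and Hk2, which trap glucose in the cell, had intervals that include 0. Hk1 averaged 88.5 ± 10.6 CPM in HS and 91.9 ± 6.93 CPM in NS (95% interval of the log2 fold change -0.30 to 0.19), and Hk2, the isozyme known as a HIF target, averaged 127 ± 10.1 CPM in HS and 118 ± 5.02 CPM in NS (-0.10 to 0.29). Gpi1, the isomerase of the next step, averaged 263 ± 36.6 CPM in HS and 228 ± 16.9 CPM in NS. Of the 3 genes of phosphofructokinase, the committed step, none was called. Pfkl averaged 53.4 ± 5.21 CPM in HS and 44.1 ± 1.92 CPM in NS without overlap (log2 fold change 0.28, edgeR adjusted p = 0.132), while Pfkp (130 ± 8.30 CPM in HS and 119 ± 7.18 CPM in NS) and Pfkm (143 ± 47.2 CPM in HS and 152 ± 27.5 CPM in NS) overlapped.

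The enzymes that set the level of fructose 2,6-bisphosphate, the activator of phosphofructokinase, had positive differences that did not pass. Pfkfb3 had 59.5, 46.2 and 75.5 CPM in HS and 40.3, 46.5 and 42.3 CPM in NS (log2 fold change 0.49, edgeR adjusted p = 0.102). HS replicate 2 lay within the NS range, and without this library the log2 fold change was 0.65 (adjusted p = 0.00321). Pfkfb4 had 34.7, 29.9 and 33.7 CPM in HS and 27.8, 28.1 and 27.5 CPM in NS (log2 fold change 0.24, adjusted p = 0.226).

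Aldolase splits the 6-carbon sugar in the last step of upper glycolysis. Aldoa, the muscle and general isozyme, averaged 756 ± 153 CPM in HS and 836 ± 78.8 CPM in NS, with overlap. Aldoc, the isozyme best known from brain (chromosome 11, 78322968 to 78327781), had 7.52, 10.3 and 8.72 CPM in HS and 16.7, 12.9 and 13.7 CPM in NS. Every HS library was below every NS library. Its log2 fold change was -0.71 ± 0.193 (SE), which missed the threshold at an edgeR adjusted p = 0.0529, and Aldoc was called lower with no factor beyond the library total (adjusted p = 0.0415), with DESeq2 (adjusted p = 0.00842) and without HS replicate 2 (adjusted p = 0.0145).

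All 8 genes of lower glycolysis had a log2 fold change above 0, with a median of 0.23. Among them 1 was called higher (12.5%, against 6.33% of all tested genes). Without HS replicate 1 the log2 fold change of Eno3 was below 0 and that of Pkm was -0.00. For Eno2, which encodes the enolase known from neurons (chromosome 6, 124760053 to 124769673), 354, 153 and 310 reads were counted in the HS libraries, against 46, 66 and 125 in the NS libraries. This was 13.3, 6.82 and 11.4 CPM in HS and 2.01, 3.17 and 5.0 CPM in NS. The groups did not overlap, and Eno2 showed the largest log2 fold change of the 37 members in size, 1.62 ± 0.371 (SE, edgeR adjusted p = 0.0336) or 3.08-fold. Of 9 Schwann cell and neuron markers, 7 were tested and neither edgeR nor DESeq2 called any (2 had an unadjusted p below 0.05), and their summed CPM was 75.1 to 119 in HS and 79.2 to 96.2 in NS, with none of the 9 at 0. The Eno2 window held no ACGTG or GCGTG on either strand. The 189 of its 250 bases that lie outside annotated exons are shown because Eno2 had the largest fold, and with no match they carry no capitals.
Eno2, chr6:124769674-124769862, minus strand: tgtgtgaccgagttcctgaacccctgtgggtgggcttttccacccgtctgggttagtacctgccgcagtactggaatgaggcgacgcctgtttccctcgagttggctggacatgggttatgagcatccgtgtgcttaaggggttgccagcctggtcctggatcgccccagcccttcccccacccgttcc

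The other members of lower glycolysis were not called. Pgk1, which encodes phosphoglycerate kinase, the first ATP-making step, had 267, 223 and 239 CPM in HS and 180, 187 and 214 CPM in NS, without overlap (log2 fold change 0.33 ± 0.10, SE, edgeR adjusted p = 0.0750). It was called with DESeq2 (adjusted p = 0.0467) and without HS replicate 2 (adjusted p = 0.0128). Eno1, the general enolase, averaged 365 ± 25.7 CPM in HS and 316 ± 28.8 CPM in NS, and the mutase Pgam1 106 ± 7.81 CPM in HS and 94.0 ± 3.95 CPM in NS. HS lay above NS in both genes, by a small gap. Tpi1, the triose isomerase, averaged 296 ± 53.9 CPM in HS and 251 ± 9.69 CPM in NS, and Pkm, which encodes pyruvate kinase, 730 ± 106 CPM in HS and 672 ± 16.9 CPM in NS (95% interval of the log2 fold change -0.14 to 0.38). The splice forms of Pkm cannot be told apart in counts per gene.

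Gapdh, a dehydrogenase widely used as a reference gene, had 57.3, 39.5 and 41.9 CPM in HS and 39.0, 42.2 and 38.6 CPM in NS (log2 fold change 0.21, edgeR adjusted p = 0.397). The level of Gapdh in this table was low for so abundant a transcript. Of the 75-base windows of its annotated transcripts 22.6% occur letter for letter in transcripts of other annotated genes, 118 in number, so its counts are uncertain. Exons of 14 of the 37 members also overlap exons of another annotated gene. The share of 75-base windows found in other genes was 52.8% for Pgk1, 34.9% for Pgam1, 23.0% for Eno1, 17.8% for Pkm and 16.9% for Bnip3l. Among the called genes it was 12.6% for Ldhb (shared with Gm5514), 1.29% for Hif1a (shared with Gm49321) and 0% for Epas1, Ndrg1 and Eno2. The sources used here do not state how reads that match several genes were counted.

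Of the 2 lactate dehydrogenase genes, 1 fell and none rose, while 2.51% of all tested genes were called lower and 6.33% higher. Ldhb, the subunit of oxidative tissues (chromosome 6, 142490249 to 142507957), had 41.4, 37.8 and 40.2 CPM in HS and 52.5, 52.8 and 56.2 CPM in NS. The groups were well apart, with means and SDs of 39.8 ± 1.80 CPM in HS, against 53.8 ± 2.04 CPM in NS. The log2 fold change was -0.44 ± 0.0946 (SE, edgeR adjusted p = 0.0276), a ratio of 0.739. Ldha, the lactate-forming subunit and a classical HIF target, was counted 54, 44 and 44 times in HS libraries and 62, 45 and 41 times in NS libraries, or 1.87 ± 0.225 CPM in HS and 2.17 ± 0.536 CPM in NS. Such counts are very low for a gene of this kind, and 2.48% of its 75-base windows are shared with other annotated genes. Its 95% interval, -1.06 to 0.63 on the log2 scale, allows differences either way. The share for Ldhb is 12.6%. Windows of both genes are shown for comparison, with matches on either strand in capitals (a match on the other strand reads CACGT or CACGC here). Ldha has 2 windows, of which the one shown held 5 matches, 4 of them in a pair of CACGTG, and the other, at chr7:46846832-46847081, held 1. The only Ldhb window held 1.
Ldha, chr7:46845554-46845803, plus strand: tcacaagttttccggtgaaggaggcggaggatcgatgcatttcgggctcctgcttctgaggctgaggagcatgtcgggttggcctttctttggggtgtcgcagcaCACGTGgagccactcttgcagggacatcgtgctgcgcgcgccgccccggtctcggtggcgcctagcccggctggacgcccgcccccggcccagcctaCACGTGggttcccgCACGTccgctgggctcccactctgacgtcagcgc
Ldhb, chr6:142507958-142508207, minus strand: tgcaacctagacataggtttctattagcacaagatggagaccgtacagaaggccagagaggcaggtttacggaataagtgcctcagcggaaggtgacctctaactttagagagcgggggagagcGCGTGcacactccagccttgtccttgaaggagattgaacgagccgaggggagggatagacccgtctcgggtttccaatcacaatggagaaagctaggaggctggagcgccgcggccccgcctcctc

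Hair follicle and sebaceous gland markers were lower in HS along with Ldhb and Aldoc. The summed CPM of 13 hair follicle markers, 4 called lower and none higher, was 16306 to 20068 in HS and 22797 to 26840 in NS. That of 9 sebaceous gland markers, 4 called lower and none higher, was 4030 to 4771 in HS and 5377 to 6380 in NS. No marker of either list was at 0, and their part in the values of Ldhb and Aldoc was not tested.

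Skeletal muscle, which lies under the skin, expresses Eno3, Pfkm and Aldoa as its main isozymes, and these genes were highest in the same libraries as muscle markers. The summed CPM of 18 muscle markers was 14686, 7683 and 7518 in HS and 9401, 8269 and 8123 in NS, with none at 0, 1 of the 18 called higher (Myh4) and 2 lower (Myh2 and Mb). Eno3 had 223, 102 and 115 CPM in HS and 158, 109 and 98.2 CPM in NS, and Pfkm 197, 111 and 121 CPM in HS and 182, 148 and 127 CPM in NS. HS replicate 1 was the highest and NS replicate 1 the second highest library in the marker sum, in Eno3, in Pfkm and in Aldoa. Without HS replicate 1 the log2 fold change of Eno3 was -0.17, against 0.27 with it, that of Pfkm -0.39, against -0.09, and that of Aldoa -0.32, against -0.15. None of these values was called, and the part of muscle in them was not tested. The summed CPM of 18 glycolytic enzymes with lactate dehydrogenase averaged 3554 ± 514 in HS and 3352 ± 48.3 in NS, and without Aldoa, Eno3 and Pfkm it averaged 2509 ± 255 in HS and 2242 ± 92.5 in NS. Both sums overlapped between the groups.

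**Figure D3:**
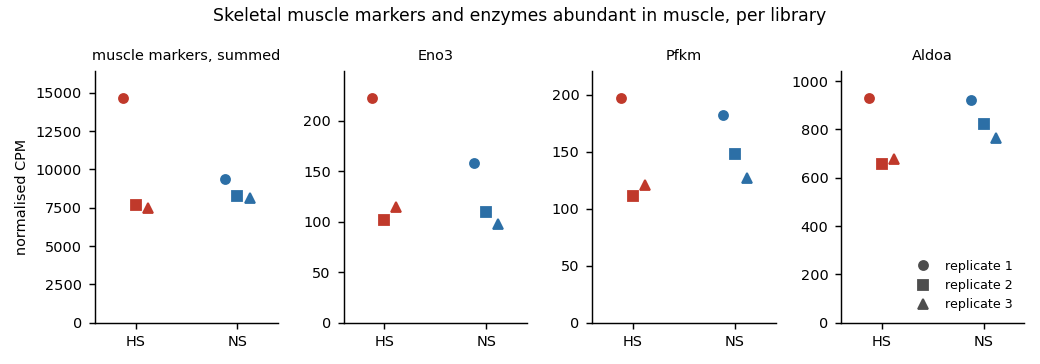
Normalised CPM per library, HS left and NS right, for the sum of 18 skeletal muscle markers and for Eno3, Pfkm and Aldoa, with circle, square and triangle for replicates 1, 2 and 3 and every axis starting at 0. The highest point of each panel is HS replicate 1 (14686 CPM for the markers, 223 CPM for Eno3), followed by NS replicate 1.

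Per kilobase of annotated exon, Aldoa had the highest mean level of the members, with 260 CPM per kilobase in HS and 287 in NS, followed by Pkm with 146 in HS and 134 in NS. Next came Tpi1 (108 in HS and 91.1 in NS) and Pgk1 (108 in HS and 86.4 in NS). Hif1a, at 66.0 CPM per kilobase in HS and 45.2 in NS, was above Epas1, at 29.8 in HS and 23.3 in NS. Among enolases, Eno3 (84.3 in HS and 70.1 in NS) and Eno1 (67.8 in HS and 58.8 in NS) were far above Eno2 (2.23 in HS and 0.721 in NS), so that the called enolase was the least expressed. Slc2a3 had 0.959 CPM per kilobase in HS and 0.541 in NS, against 19.7 in HS and 14.2 in NS for Slc2a1. Exon lengths are unions over all annotated transcripts, which lowers the level of a gene whose longest forms are not used. Levels of different genes also depend on how reads shared with other genes were counted, which is not stated. The places of Pgk1, Eno1 and Pkm, with 52.8%, 23.0% and 17.8% of 75-base windows shared, are therefore uncertain.

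Ratios of related genes within a library do not depend on library scaling. Of 11 ratios compared, 3 did not overlap between HS and NS. The log2 count ratio Eno2/Eno1 was -4.77, -5.64 and -5.11 in HS and -7.14, -6.71 and -6.06 in NS, a difference of 1.46. The ratio Slc2a3/Slc2a1 was -3.04, -3.47 and -3.50 in HS and -3.51, -3.81 and -3.66 in NS, a difference of 0.33, with HS replicate 3 and NS replicate 1 almost level. The ratio Epas1/Hif1a was -1.27, -1.22 and -1.19 in HS and -1.03, -0.98 and -1.07 in NS, a difference of -0.20, with the ratio lower in HS although both genes rose. Each of the 3 had the smallest p that 3 against 3 libraries allow in a two-sided exact permutation test, p = 0.1 (adjusted p = 0.367 over the 11 ratios), and this design cannot pass a threshold of 0.05. Ratios of hexokinases, phosphofructokinases, Pfkfb3/Pfkfb4, Aldoa/Aldoc, Egln3/Egln1, Eno1/Eno3 and Ldha/Ldhb overlapped, with exact p between 0.2 and 0.9.

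**Figure D4:**
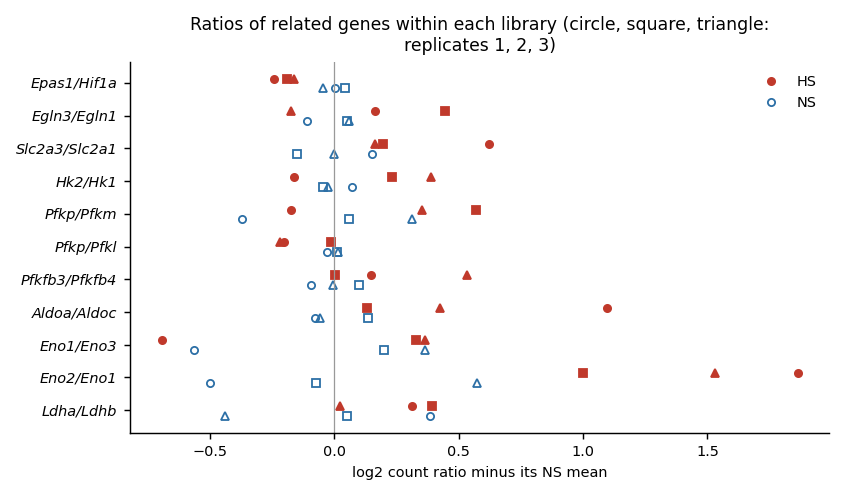
Log2 ratios of the counts of 2 related genes in each library, minus the mean ratio of the 3 NS libraries (filled red, HS; open blue, NS). Eno2/Eno1 and Slc2a3/Slc2a1 lie to the right of NS and Epas1/Hif1a to the left without overlap, and the other 8 ratios overlap.

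Of 35 other genes of the hypoxia response, 8 rose and 2 fell, or 22.9% and 5.71%, against 6.33% and 2.51% of all tested genes, with a median log2 fold change of 0.09. This list and the lists of related genes below were chosen with earlier results of these data known. A high share of calls can follow from that choice and is no test of the pathway. Plod2, a lysyl hydroxylase of collagen, had 106, 49.6 and 86.4 CPM in HS and 28.6, 29.5 and 29.1 CPM in NS (2.78-fold, edgeR adjusted p = 0.0202). P4ha1, P4ha2 and Loxl2, which also modify collagen, rose as well (2.04-fold, 3.06-fold and 4.67-fold), as did the growth factor Vegfa (1.39-fold), the lipase inhibitor Angptl4 (2.26-fold) and the repressor Bhlhe40 (1.24-fold). The transferrin receptor Tfrc (166 ± 17.0 CPM in HS and 225 ± 12.9 CPM in NS, adjusted p = 0.0276) and Insig2, a brake on sterol synthesis (135 ± 8.58 CPM in HS and 173 ± 8.46 CPM in NS, adjusted p = 0.0333), fell. Fibroblast markers rose beside these genes. The sum of 10 fibroblast markers, 7 called higher and none lower, was 28239 to 59141 CPM in HS and 11846 to 15330 CPM in NS, with none at 0, and its part was not tested.

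In neighbouring glucose metabolism the calls were 1 or 2 genes a list, while 6.33% of all tested genes were called higher and 2.51% lower. Of 15 other glycolysis genes tested, 2 rose (13.3%) and none fell. Hk3, the hexokinase of white blood cells, had 14.4, 6.82 and 9.23 CPM in HS and 3.10, 2.35 and 3.20 CPM in NS (3.51-fold, edgeR adjusted p = 0.0153). Pdk4, like Pdk1 an inhibitor of pyruvate dehydrogenase, averaged 123 ± 19.3 CPM in HS and 78.0 ± 14.8 CPM in NS (1.58-fold, edgeR adjusted p = 0.0429). In the pentose phosphate pathway 1 of 8 rose (12.5%), H6pd, its enzyme of the endoplasmic reticulum (1.59-fold, adjusted p = 0.0464), and 1 fell (12.5%), G6pdx, the first enzyme in the cytosol, with 177 ± 13.5 CPM in HS and 235 ± 11.1 CPM in NS (adjusted p = 0.0246). Of 17 genes of glycogen and gluconeogenesis, 1 rose (5.88%), the glycogen phosphorylase Pygl (1.56-fold, adjusted p = 0.0334), and none fell.

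No gene of mitochondrial oxidation was called by edgeR, while 8.85% of all tested genes were called and 26.3% had an unadjusted p below 0.05. Among 26 genes of pyruvate dehydrogenase and the citric acid cycle, 3 had an unadjusted p below 0.05, and the median log2 fold change was 0.02. Citrate synthase (Cs) averaged 457 ± 29.0 CPM in HS and 543 ± 1.26 CPM in NS (adjusted p = 0.10), and the phosphatase Pdp1 34.3 ± 4.55 CPM in HS and 26.6 ± 3.31 CPM in NS (adjusted p = 0.145). Among 23 genes of the respiratory chain, 5 had an unadjusted p below 0.05, the median was -0.09, and 17 were below 0. Cox6a1, a subunit of cytochrome oxidase, averaged 59.1 ± 3.96 CPM in HS and 74.4 ± 5.30 CPM in NS (adjusted p = 0.0638), and Ndufv1, of complex I, 76.2 ± 2.70 CPM in HS and 91.9 ± 5.20 CPM in NS (adjusted p = 0.0769). With DESeq2, Cs and Cox6a1 were called lower (adjusted p = 0.0421 and adjusted p = 0.0360), and without HS replicate 2 the call was also made for Ndufa4 (lower) and Pdp1 (higher).

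**Figure D5:**
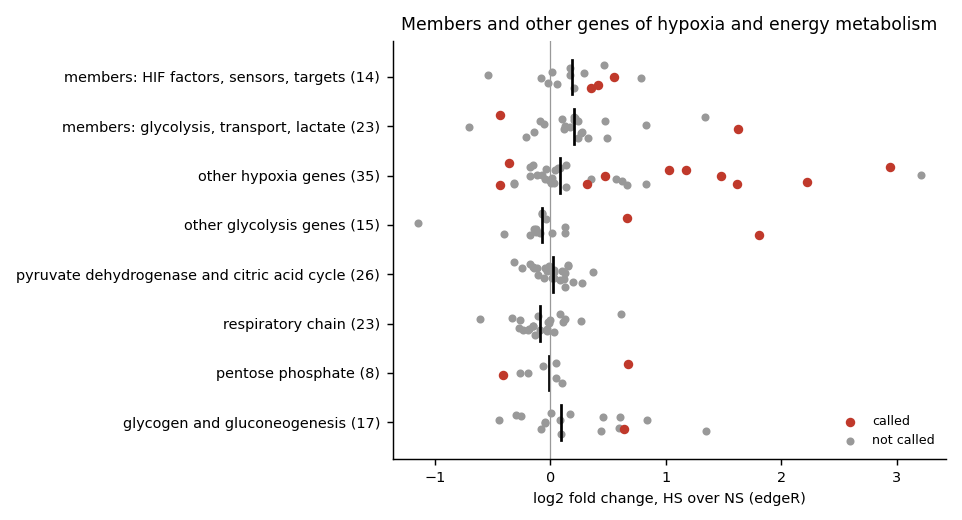
Log2 fold changes (HS over NS) of the members, in 2 rows, and of 6 lists of related genes, with called genes in red, others in grey, medians as black bars and the number of genes tested in parentheses. The list of other hypoxia genes holds 10 calls, while the mitochondrial lists hold no call.

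The calls of members depended on single libraries. Without HS replicate 3, NS replicate 1, NS replicate 2 or NS replicate 3 none of the 37 members was called, in fits that called 148, 94, 25 and 48 of all genes, against 1284 with all libraries. Without HS replicate 1, 2 rose (Hif1a and Eno2) and 1 fell (Ldhb), and without HS replicate 2, 11 rose and 2 fell, in a fit that called 13.5% of all genes higher and 8.49% lower. Over 15 alternatives the log2 fold change ranged from 0.49 to 0.61 for Hif1a, 0.29 to 0.41 for Epas1, 0.32 to 0.50 for Ndrg1, 1.35 to 2.01 for Eno2 and -0.50 to -0.40 for Ldhb.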

How the data were processed

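RNA was extracted from mouse skin scars, depleted of ribosomal RNA and sequenced as 150-base read pairs, per the labels' protocols. Per the submitters' processing notes, build mm10 was used, and the tools named are edgeR, HTSeq 0.9.1, HISAT2 2.0.4 and cutadapt 1.9.3, in no stated role. The table the authors deposited holds raw counts per gene beside 6 columns of normalized values, which were not used. Genes with too few counts (edgeR's filterByExpr, minimum count 10) were left out, library totals were corrected by TMM, and HS was tested against NS with edgeR 4.0.16 (glmQLFit with its robust step, glmQLFTest, R 4.3.3), adjusted by Benjamini-Hochberg, with a threshold of 0.05. SEs were worked back from the log2 fold change and the test statistic of that fit. Intervals are 95%, from those SEs and a t distribution, so they restate the test. DESeq2 1.42.0, limma 3.58.1 (voom), other scalings and filters, a replicate block and each library left out were the alternatives. Scripts were tested on simulated data. A GENCODE annotation of GRCm38 matched 17398 gene IDs and gave positions, exon lengths and shared sequence; promoter windows are from RefSeq. By library totals, before TMM, 1 count was worth 0.0359 to 0.0491 CPM. Members and gene lists were chosen with earlier results of these data known. All members are named, with the 2 genes of smallest p per direction in each other list; further called genes, Ndufa4 and marker genes were named after their values were seen. A called gene among the other hypoxia genes is not reported here by name.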

Additional observations from a re-analysis of the deposited data

How the results depend on the processing

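No called member changed sign in any of the 15 alternatives, and the calls were lost in 4 of them for Hif1a and Eno2, 5 for Ldhb, 7 for Epas1 and 9 for Ndrg1. DESeq2 called 2435 genes (1614 higher, 821 lower), 9 members higher and 2 lower, and 6 related genes lower. With no factor beyond the library total 585 genes were lower, 2 members were higher and 2 lower, and 5 related genes were lower. With the replicate number as a block, 0 members and 1 related gene were lower and 3 members higher. The labels give a replicate number and state no pairing of HS with NS libraries. Deviations of same-numbered libraries had correlations of 0.0109, 0.00809 and 0.0335, and those of other pairs ran from -0.0399 to 0.0185. Such correlations over all genes cannot show whether libraries were paired by animal or batch. Leaving out 1 library each gave 25 to 3257 calls, 20 to 2000 higher and 5 to 1257 lower, with 0 to 11 members higher and 0 to 2 lower, and 0 to 16 related genes higher and 0 to 9 lower. The adjusted p over the alternatives ranged over 4.45e-05 to 0.0955 for Hif1a, 0.00388 to 0.160 for Epas1, 0.00319 to 0.173 for Ndrg1, 0.00047 to 0.144 for Eno2 and 0.0019 to 0.105 for Ldhb (edgeR, DESeq2 and limma). The cause of these changes was not tested. Exact permutation tests of the ratios cannot go below 0.1. Counts of Ldha and Car9 are too few to show a moderate difference.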
